A study of Mus musculus with 7 samples.

Results

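Genes for lipid-sensing nuclear receptors and their coregulators were followed in microglia of old and young male mice after stroke. They were 9 of the 50686 genes listed in each library: the liver X receptors Nr1h3 (LXR alpha) and Nr1h2 (LXR beta), the retinoid X receptors Rxra and Rxrb, the peroxisome proliferator-activated receptors Ppara, Ppard and Pparg, the coactivator Ncoa1 and the corepressor Ncor1. All 9 passed the filter on low counts and were among the 17559 genes tested. They were chosen by symbol with the expected counts and TPM values of this age comparison already known, so their age differences are given as a description and not as independent evidence. The microglia came from C57BL/6 males, for which the labels name no transgene or drug, 3 old mice (21 to 22 months) and 4 young mice (3 to 4 months), and every mouse of both ages had undergone middle cerebral artery occlusion 4 days before. Cells stained by Bodipy, a dye for neutral lipids, were sorted by FACS within the CD11b and CD45 gate of microglia, and 1 Smart-seq2 library was made per mouse. The series as used here holds no sham-operated mouse, so the values compare ages after ischemia only, and non-ischemic levels were not analysed here.

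Nuclear receptors of this group are transcription factors that bind lipids inside the cell. LXRs bind oxysterols and switch on cholesterol efflux, PPARs bind fatty acids and their derivatives and switch on lipid storage and oxidation, and both bind DNA as heterodimers with an RXR. Without ligand the heterodimer can hold NCoR1 with histone deacetylases on a target gene, and with ligand it recruits coactivators such as NCoA1 (SRC-1), which bring in histone acetyltransferases. In macrophages and microglia the same receptors are known for coupling lipid handling to the inflammatory response.

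Total expected counts were 36574083 to 53002386 per library. The 10 microglia markers summed to 21943 to 32205 CPM (read counts relative to the library total, scaled by the TMM method) in young mice and to 12049 to 25994 CPM in old mice. Old mouse 3posI stood apart: its microglia markers were the lowest of the 7 libraries, its 4 monocyte markers (Ccr2, Ly6c2, Plac8, Chil3) summed to 1906 CPM against 14.6 to 99.2 CPM in the other 6 libraries, and its 4 markers of border-associated macrophages summed to 432 CPM against 38.1 to 179 CPM. Some of these markers also separated the ages in all old mice. Ly6c2 had 0.936 to 2.85 CPM in young mice and 15.3, 162 and 9.59 CPM in old mice 2posI, 3posI and 4posI (adjusted p = 0.0539, edgeR), and Plac8 had 0.922 to 4.56 CPM against 6.91, 86.2 and 11.7 CPM (adjusted p = 0.0851), whereas Ccr2 and Chil3 overlapped. The 4 dendritic cell markers summed to 3.86 to 6.80 CPM in young mice and to 8.31 to 14.7 CPM in old mice, where Cd209a had 0.086 to 1.48 against 4.49 to 6.85 CPM without overlap and Flt3, Xcr1 and Zbtb46 overlapped. No monocyte or dendritic cell marker was at 0 in any library, and T cell and B cell markers summed to at most 1.62 and 1.04 CPM. Neutrophil markers summed to 1.22 to 106 CPM in young and 30.3 to 95.8 CPM in old mice. In the same order, endothelial markers summed to 50.2 to 97.9 and 40.4 to 53.6 CPM. Astrocyte markers had 15.1 to 74.7 and 10.9 to 79.3 CPM, and oligodendrocyte markers 44.6 to 50.2 and 43.2 to 61.6 CPM. Fcrls (microglia) and Pecam1 (endothelium) were lower in old mice without overlap. Values that rest on 3posI are therefore given with and without it. In bulk samples, fewer cells of a type and less RNA per cell cannot be told apart.

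The coregulators and Rxra were the genes in which the ages separated. Ncoa1 and Ncor1 were higher in old mice, Ncoa1 by 2.26-fold and Ncor1 by 1.60-fold, and Rxra was higher by 1.60-fold, whereas the libraries of Nr1h2, Rxrb and Ppard overlapped, with log2 fold changes between -0.24 and 0.24. Nr1h3 and Pparg were high in 1 old library, and Ppara was barely counted. Of the 9 genes, 2 (Ncoa1 and Ncor1) passed an adjusted p of 0.05 with edgeR's quasi-likelihood test after Benjamini-Hochberg adjustment, against 0.803% of all genes tested. DESeq2 called 3 (Rxra as well) against 7.97% of all genes, and gave no adjusted p for Nr1h3 and Ppara. In CPM, 3 of 9 had no overlap between ages, against 17.8% of all genes tested, and all 3 lay higher in old mice, against 8.70%. These shares stand beside the counts because the genes were chosen with this comparison known, and nothing is read from them.

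**Figure D1:**
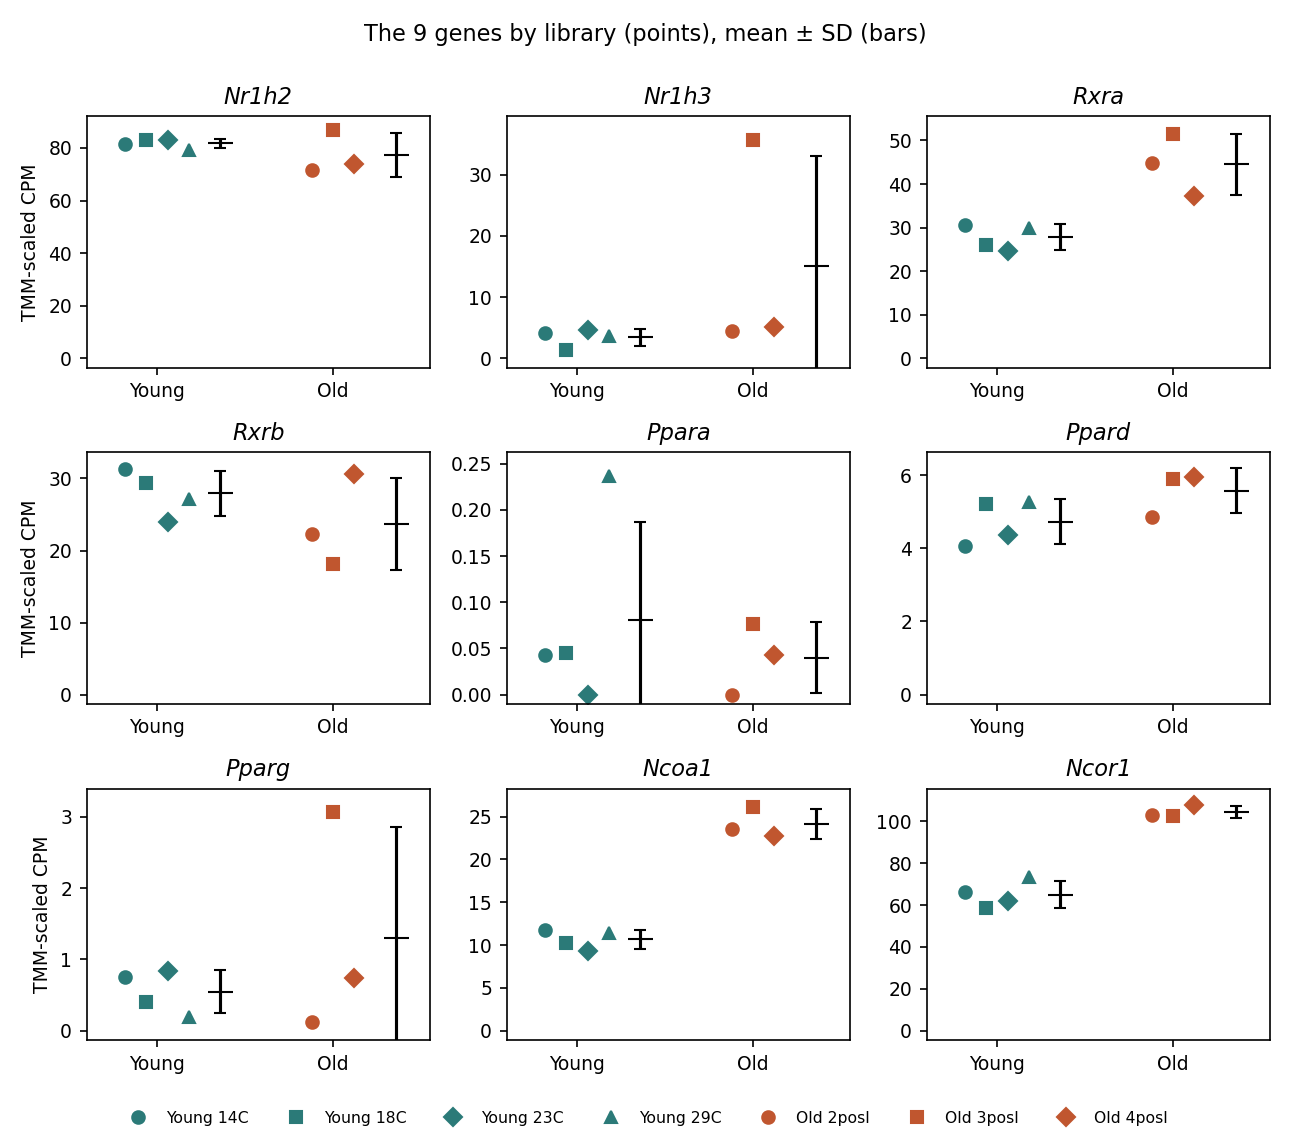
TMM-scaled CPM (y axis, from 0, one scale per gene) of the 9 genes in each library, young mice in green and old mice in orange, with the mean ± SD of each age (n = 4 young, n = 3 old) as a black bar that is cut where it would pass below the axis. Ncoa1, Ncor1 and Rxra show no overlap between ages, and the old mean of Nr1h3 (15.2 CPM) and Pparg (1.31 CPM) includes the far higher value of 3posI.

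Nr1h2, the LXR expressed in nearly all cell types, lies on chr7:44549616-44553951 (GRCm38, minus strand). It had the highest mean transcript level of the 9 over all libraries, although Ncor1 was higher in old mice 2posI and 4posI. Its CPM was 81.4 in young mouse 14C, 83.0 in 18C, 83.0 in 23C and 79.2 in 29C, and 71.5 in old mouse 2posI, 86.7 in 3posI and 73.7 in 4posI. The ages overlapped, because 3posI lay above and the other two old libraries below all young ones. The log2 fold change of old over young was -0.08 ± 0.11 (SE). In TPM, which divides by the transcript length that RSEM estimates in each library, Nr1h2 was 69.5 to 76.8 in young mice and 54.4 to 65.6 in old mice without overlap. It is the gene that made 4 of 9 without overlap in TPM, against 17.5% of all genes tested. Its effective length was 1480 to 1585 bases in young and 1602 to 1788 bases in old mice, also without overlap. Of the 12174 genes with at least 1 CPM, 12.1% were likewise longer in old mice without overlap.

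Nr1h3, the LXR that is enriched in macrophages and liver, lies on chr2:91184061-91202834 (minus strand). It had 4.09, 1.45, 4.61 and 3.74 CPM in young mice 14C, 18C, 23C and 29C, and 4.56, 35.7 and 5.20 CPM in old mice 2posI, 3posI and 4posI. The value of 3posI was 6.87 times that of the next library, and the other two old libraries lay close to the upper young ones. The log2 fold change was 2.12 ± 0.72 (adjusted p = 0.173, edgeR) with all libraries and 0.49 ± 0.41 (adjusted p = 0.575) without 3posI. All 4 monocyte markers were highest in the same library, and their part in the Nr1h3 value was not tested. Relative to Nr1h2 in the same library, the TPM of Nr1h3 was 0.0157 to 0.0535 in young mice, 0.0581 and 0.0674 in old mice 2posI and 4posI, and 0.422 in 3posI. Nr1h2 was thus the more abundant LXR in every library.

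Among the RXRs, the shared partners of LXRs and PPARs, Rxra (chr2:27676440-27762957, plus strand) was higher in old mice. It had 30.7, 26.1, 24.5 and 29.9 CPM in young mice 14C, 18C, 23C and 29C, and 44.8, 51.4 and 37.4 CPM in old mice 2posI, 3posI and 4posI. No old value fell within the young range. The log2 fold change was 0.68 ± 0.15 with an unadjusted p of 0.0013 and an adjusted p of 0.0718 (edgeR), which misses the threshold, and it was 0.56 ± 0.15 without 3posI. Its TPM also did not overlap, at 7.18 to 8.81 in young mice and 11.1 to 13.6 in old mice. The effective length of Rxra was 4814 to 4856 bases in young and 4784 to 4810 bases in old mice. It was shorter in old mice without overlap, as were 5.58% of the 12174 genes with at least 1 CPM.

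Rxrb (chr17:34031812-34038399, plus strand) overlapped between ages. It had 31.3, 29.4, 24.0 and 27.2 CPM in young mice 14C, 18C, 23C and 29C, and 22.3, 18.1 and 30.6 CPM in old mice 2posI, 3posI and 4posI. Old mouse 4posI lay within the young range and the other two below it. The log2 fold change was -0.24 ± 0.19 (adjusted p = 0.524, edgeR). The TPM of Rxra was 0.405 to 0.522 times that of Rxrb in young mice and 0.553 to 1.30 times in old mice, so the ratio did not overlap between ages and in 3posI alone Rxra was the higher of the pair.

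Of the PPARs, Ppard stood at percentile 44.8 of all tested genes by TPM, Pparg at 27.2 and Ppara at 7.98. Ppard (chr17:28232700-28301474, plus strand), the PPAR found in most tissues, had 4.07, 5.21, 4.35 and 5.27 CPM in young mice 14C, 18C, 23C and 29C, and 4.86, 5.90 and 5.96 CPM in old mice 2posI, 3posI and 4posI. The ages overlapped and the log2 fold change was 0.24 ± 0.20 (adjusted p = 0.546, edgeR). Pparg (chr6:115360951-115490399, plus strand), known as a regulator of fat cells and of lipid uptake in macrophages, had 35, 18, 43 and 9 counts in young mice and 4, 120 and 34 in old mice, in the same order of libraries. The 120 counts of 3posI were 3.07 CPM, 3.64 times the CPM of the next library, and the 3 lowest libraries included 1 old one. Its log2 fold change of 1.25 ± 0.90 with all libraries was -0.34 ± 0.85 without 3posI.

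Ppara (chr15:85734983-85802819, plus strand), which directs fatty acid oxidation in liver and heart, had 2, 2, 0 and 11 counts in young and 0, 3 and 2 counts in old mice. At a count of 0 the depth allows up to 3 counts, which is 0.0588 CPM in young mouse 23C and 0.0894 CPM in old mouse 2posI. The filter admitted Ppara through young mouse 29C alone, and an age difference was not detectable at this depth. Because no molecular identifiers are named for these libraries, such limits cover counting error only.

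**Figure D2:**
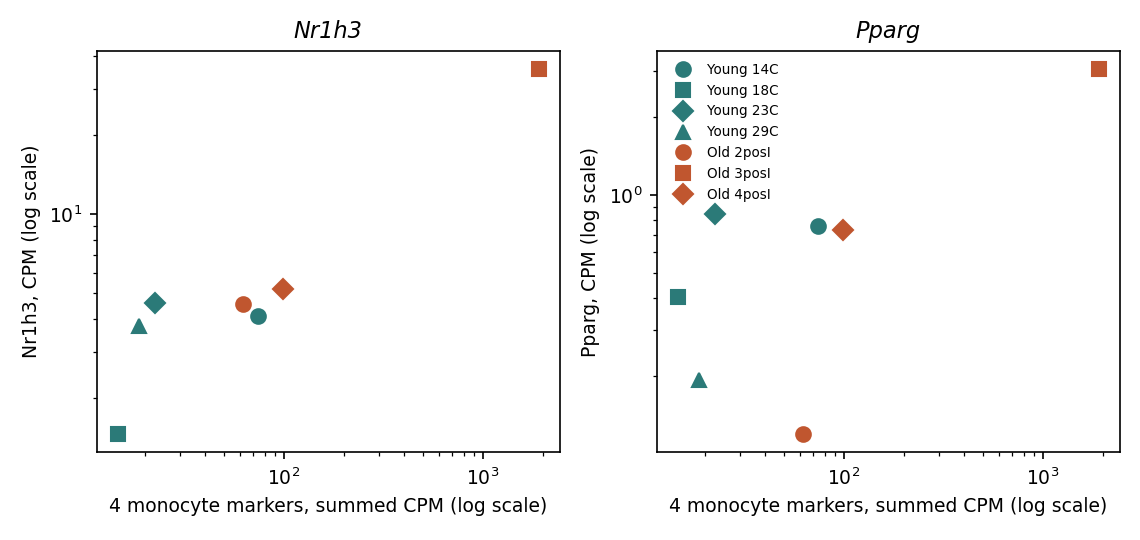
CPM of Nr1h3 (left) and Pparg (right) against the summed CPM of the 4 monocyte markers, both on log axes, with 1 point per library. Old mouse 3posI stands alone at 1906 CPM of monocyte markers, with 35.7 CPM of Nr1h3 and 3.07 CPM of Pparg, and the other 6 libraries lie between 14.6 and 99.2 CPM of the markers.

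Ncoa1 (chr12:4247362-4477182, minus strand) encodes a p160 coactivator that binds ligand-loaded receptors. It had 11.7, 10.3, 9.26 and 11.4 CPM in young mice 14C, 18C, 23C and 29C, and 23.5, 26.1 and 22.8 CPM in old mice 2posI, 3posI and 4posI. The ages were far apart, with the lowest old value at 22.8 and the highest young value at 11.7 CPM. The log2 fold change was 1.18 ± 0.14 (adjusted p = 0.0236, edgeR), rank 11 of the 17559 genes by p. Without 3posI it was 1.12 ± 0.15 (adjusted p = 0.0254) and without 4posI 1.21 (adjusted p = 0.0459). The call was lost when 14C (adjusted p = 0.108), 18C (0.0821), 23C (0.0506), 29C (0.0632) or 2posI (0.0959) was left out, with log2 fold changes of 1.11 to 1.23, and with limma on TPM. The monocyte markers Ly6c2 and Plac8 and the dendritic cell marker Cd209a were also higher in old mice 2posI and 4posI, as given above. Ccr2, Chil3, Flt3, Xcr1 and Zbtb46 overlapped between ages. The part of such cells in the values of Ncoa1, Ncor1 and Rxra was not tested. TPM gave 2.55 to 4.52 in young mice and 8.40 to 9.63 in old mice.

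Ncor1 (chr11:62316426-62458541, minus strand) encodes the corepressor that carries HDAC3 to receptors without ligand. It had 66.1, 58.7, 61.7 and 73.3 CPM in young mice 14C, 18C, 23C and 29C, and 103, 102 and 108 CPM in old mice 2posI, 3posI and 4posI. The 3 old libraries lay within a narrow band above all young ones, with a mean of 104 ± 2.87 (SD, n = 3) against 64.9 ± 6.33 (SD, n = 4). The log2 fold change was 0.68 ± 0.11 (adjusted p = 0.0421, edgeR), rank 93 by p. It was 0.70 ± 0.13 without 3posI, where the adjusted p was 0.0524, and the call was lost whichever library was left out (adjusted p up to 0.151) and with limma on TPM. In TPM the gap narrowed to 40.6 to 47.9 in young against 55.3 to 72.5 in old mice.

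The lengths and the sharing of reads that RSEM estimated touch the values of both coregulators. RSEM gave Ncor1 an effective length of 1876 to 2083 bases in young and 2115 to 2347 bases in old mice, longer without overlap, as were 12.1% of the 12174 genes with at least 1 CPM, whereas that of Ncoa1 was 3624 to 5135 bases in young and 3373 to 3775 bases in old mice with overlap. With effective length as an offset, the log2 fold change of Ncor1 was 0.56 ± 0.13 (adjusted p = 0.0709, edgeR) and that of Ncoa1 1.42 ± 0.20 (adjusted p = 0.029). The expected count of Ncor1 was a whole number, within a tolerance of 0.001, in 0 of 7 libraries and that of Ncoa1 in 3 of 7, which marks reads that RSEM divided among genes, while the other 7 genes had whole counts in all 7 libraries. In GENCODE vM21 the exons of Ncor1 share 82 of 12811 bases with Pigl and 1 with Ttc19, and those of Ncoa1 share 68 of 8576 bases with the antisense gene 4921501I09Rik. These genes lie on the opposite strand, which the non-stranded libraries do not separate. Pigl had means of 5.45 CPM in young and 6.11 CPM in old mice, and 4921501I09Rik did not pass the filter.

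**Figure D3:**
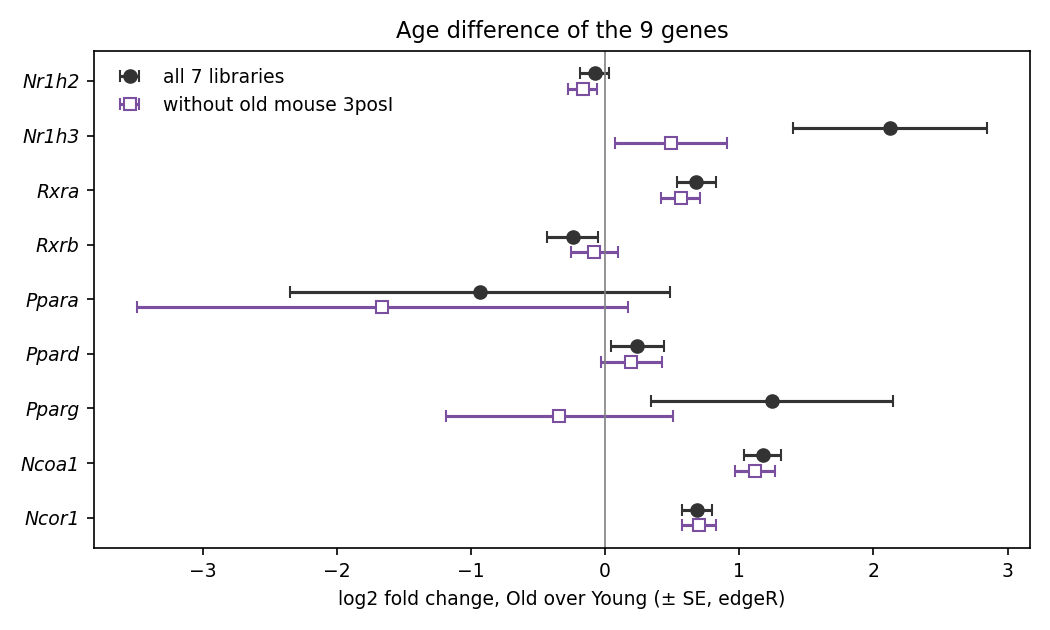
log2 fold change of old over young mice (x axis) for each of the 9 genes, with the SE of edgeR's fit as bars, for all 7 libraries (filled circles) and without old mouse 3posI (open squares). Ncoa1, Ncor1 and Rxra stay near their values without 3posI, Nr1h3 moves from 2.12 to 0.49 and Pparg from 1.25 to -0.34.

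The 3 genes without overlap in CPM between ages also had the most similar patterns among the 9. Over the 7 libraries, Pearson's r of log2 CPM was 0.971 between Ncoa1 and Ncor1, 0.960 between Rxra and Ncoa1 and 0.904 between Rxra and Ncor1, as a description in which the points share their libraries and the age groups. Ncoa1 relative to Ncor1, in TPM, was 0.0549 to 0.102 in young mice and 0.133 to 0.159 in old mice, again without overlap. Within the old mice, Ncor1 was highest in 4posI, where Rxra and Ncoa1 were lowest. Rxra and Ncoa1 ranked the libraries in the same order within each age. How much of each r comes from the gap between ages was not tested. The promoters of Rxra, Ncoa1 and Ncor1 are printed because their ages did not overlap. RefSeq (GRCm38.p6) gives 15 windows for the 9 genes, and the 250 bases before each start are shown in the 5′ to 3′ direction of the gene for those windows of the 3 genes that hold no annotated exon. Capitals mark the receptor half-sites AGGTCA and GGGTCA on either strand (TGACCT and TGACCC in reverse). The Rxra windows are chr2:27676951-27677200 and chr2:27709042-27709291, the Ncoa1 window is chr12:4477183-4477432 and the Ncor1 window, before a start within the gene, is chr11:62438516-62438765.
Rxra, upstream start: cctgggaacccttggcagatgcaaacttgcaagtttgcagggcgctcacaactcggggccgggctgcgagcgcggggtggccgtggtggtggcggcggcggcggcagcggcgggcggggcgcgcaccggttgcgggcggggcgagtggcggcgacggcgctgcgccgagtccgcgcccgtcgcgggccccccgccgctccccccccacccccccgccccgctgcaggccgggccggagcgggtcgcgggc
Rxra, downstream start: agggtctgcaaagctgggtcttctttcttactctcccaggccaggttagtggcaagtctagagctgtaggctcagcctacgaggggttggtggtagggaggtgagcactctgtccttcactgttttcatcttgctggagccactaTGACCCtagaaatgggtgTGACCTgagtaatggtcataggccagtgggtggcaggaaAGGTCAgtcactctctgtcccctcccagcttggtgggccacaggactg
Ncoa1: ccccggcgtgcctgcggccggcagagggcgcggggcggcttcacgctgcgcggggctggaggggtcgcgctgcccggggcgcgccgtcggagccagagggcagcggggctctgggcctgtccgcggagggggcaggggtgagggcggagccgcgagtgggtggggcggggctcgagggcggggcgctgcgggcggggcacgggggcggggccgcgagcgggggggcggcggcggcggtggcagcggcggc
Ncor1, internal start: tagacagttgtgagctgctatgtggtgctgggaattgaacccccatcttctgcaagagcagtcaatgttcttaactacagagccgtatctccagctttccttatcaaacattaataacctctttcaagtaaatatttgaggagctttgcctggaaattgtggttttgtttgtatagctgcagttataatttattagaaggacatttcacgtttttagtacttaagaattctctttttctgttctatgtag
The window before the downstream Rxra start holds 3 half-sites, and the other 3 windows printed hold 0. Over all 32851 windows of this length, 23.8% hold at least 1, and 3 of the 15 windows of the 9 genes do, the other 2 being before starts of Pparg. The Ncoa1 window was 85.6% G and C, with 40 CpG, and the upstream Rxra window 81.2%, also with 40 CpG, against medians of 52.4% and 6 over all windows. The internal Ncor1 window was 36.8% G and C with 2 CpG, and the other Ncor1 window (chr11:62457333-62457582), which holds an annotated exon and is not printed, was 73.6% with 34 CpG. The downstream Rxra window was 55.2% with 1 CpG. The files do not tell which start was used.

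Levels were compared between genes on the TPM scale, which accounts for length. The TPM values were known when the genes were chosen. The order is taken over both ages, so the age differences of the genes enter it. From the highest to the lowest mean of log2(TPM + 0.1) over the 7 libraries, the order was Nr1h2, Ncor1, Rxrb, Rxra, Ncoa1, Nr1h3, Ppard, Pparg and Ppara, with geometric mean TPM of 67.9, 51.3, 15.6, 9.58, 5.34, 4.29, 3.24, 0.576 and 0.183. Nr1h2 stood at percentile 89.5 of all tested genes by TPM, Ncor1 at 86.8, Rxrb at 69.5 and Ppara at 7.98. Of the 8 neighbouring pairs, 3 passed a two-sided exact permutation test that flips the sign of the 7 within-library differences. Their adjusted p was 0.0417 over the 8 pairs, and the direction was the same in 7 of 7 libraries. With all 7 differences of the same sign, this test gives its smallest p (0.0156 before adjustment) whatever their spread. The order that made them neighbours came from the same 7 libraries. The 3 pairs were Ncor1 over Rxrb by 3.28-fold, Rxra over Ncoa1 by 1.79-fold and Ppard over Pparg by 5.62-fold over both ages. By age, with the same 0.1 added, Ncor1 was 2.11 to 3.06 times Rxrb in young mice and 3.59 to 5.26 times in old mice, and Rxra was 1.93 to 2.75 times Ncoa1 in young mice and 1.15 to 1.54 times in old mice, so the fold over both ages lies between the ranges. Ppard was 3.59 to 13.4 times Pparg in young mice and 1.79 to 15.2 times in old mice. The other 5 pairs, with adjusted p of 0.0938 to 0.516, could not be put in order over both ages. Nr1h2 was 1.45 to 1.87 times Ncor1 in young mice and 0.905 to 1.11 times in old mice. Rxrb was 1.91 to 2.45 times Rxra in young mice and 0.770 to 1.80 times in old mice. For the remaining pairs the ratios overlapped between ages. With 6 libraries the smallest adjusted p was 0.0625, so the 3 pairs lose the threshold whichever library is left out, with the same direction. Across mice, Nr1h2 and Ncor1 held the first 2 ranks in every library, with Ncor1 first in old mice 2posI and 4posI.

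**Figure D4:**
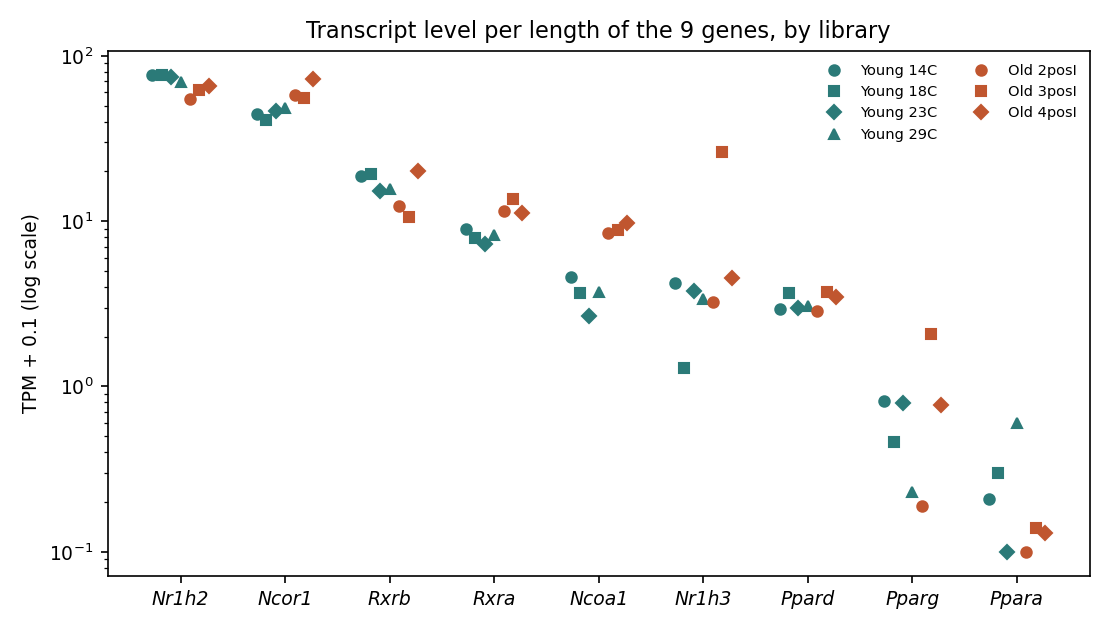
TPM + 0.1 on a log axis for the 9 genes in their order of mean level, with 1 point per library (young green, old orange). Nr1h2 and Ncor1 lie between 40.6 and 76.8 TPM in all 7 libraries, Pparg and Ppara lie at or under 1.99 TPM, and Nr1h3 of old mouse 3posI (26.0 TPM) stands far above its other libraries.

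The wider machinery was described with 6 lists of other receptors, coregulators, targets and ligand-metabolising enzymes, 106 genes of which 96 were tested. With edgeR 0 of the 96 passed an adjusted p of 0.05, and 24 (25.0%) had an unadjusted p under 0.05 against 18.9% of all genes tested. Of the 96, limma-voom called 0, limma-voom with sample quality weights 5 and DESeq2 14. Over all genes tested, edgeR called 0.803%, limma-voom 0.814%, limma-voom with sample quality weights 1.81% and DESeq2 7.97%. The ages did not overlap for 22 of 96 (22.9%), against 17.8% of all genes tested. Verbs of change are therefore not used for these genes.

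Among the other coactivators, 6 of 14 were higher and 1 lower at an unadjusted p under 0.05, against 10.1% and 8.79% of all genes tested, with a median log2 fold change of 0.40 against -0.01 over all genes. Without 3posI the counts were again 6 and 1, against 8.13% and 9.51% of all genes tested, and the median was 0.22. Ncoa6, a subunit of histone methyltransferase complexes, had 9.79 to 12.8 CPM in young and 18.1 to 24.2 CPM in old mice, a log2 fold change of 0.84 ± 0.16 (adjusted p = 0.0539, edgeR). Kat2b, the acetyltransferase PCAF, had 6.14 to 7.57 CPM in young and 11.6 to 12.9 CPM in old mice, a log2 fold change of 0.80 ± 0.15 with the same adjusted p of 0.0539. Crebbp, the acetyltransferase CBP, had 60.6 to 74.6 CPM in young and 98.1 to 112 CPM in old mice, a log2 fold change of 0.56 ± 0.12 (adjusted p = 0.0672). For all 3 the ages did not overlap and DESeq2 called them. The p160 relatives of Ncoa1 differed among themselves, with log2 fold changes of 0.68 for Ncoa2 (adjusted p = 0.125) and 0.06 for Ncoa3 (adjusted p = 0.837), and Med1, the Mediator subunit that contacts receptors, had -0.43 (adjusted p = 0.107). These 3 were picked after their values were seen, for their relation to Ncoa1 and for the 1 lower coactivator.

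The other corepressors went both ways, with a median log2 fold change of 0.09. At an unadjusted p under 0.05 (edgeR), 2 of 11 were higher and 2 lower, against 10.1% and 8.79% of all genes tested. Without 3posI these were 2 and 3, against 8.13% and 9.51%, with a median of -0.20. Tbl1xr1, a subunit of the NCoR complex, had 21.9 to 34.0 CPM in young and 44.3 to 51.0 CPM in old mice, a log2 fold change of 0.75 ± 0.16 (adjusted p = 0.0703, edgeR). Sirt1, a deacetylase, had 2.86 to 4.50 CPM in young and 6.01 to 6.79 CPM in old mice (0.82 ± 0.22, adjusted p = 0.111). Hdac5 lay the other way, at 87.4 to 113 CPM in young and 48.2 to 73.1 CPM in old mice (-0.67 ± 0.17, adjusted p = 0.1). Hdac3, the deacetylase of the complex and named here for that reason after its values were seen, had a log2 fold change of -0.13 (adjusted p = 0.564).

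**Figure D5:**
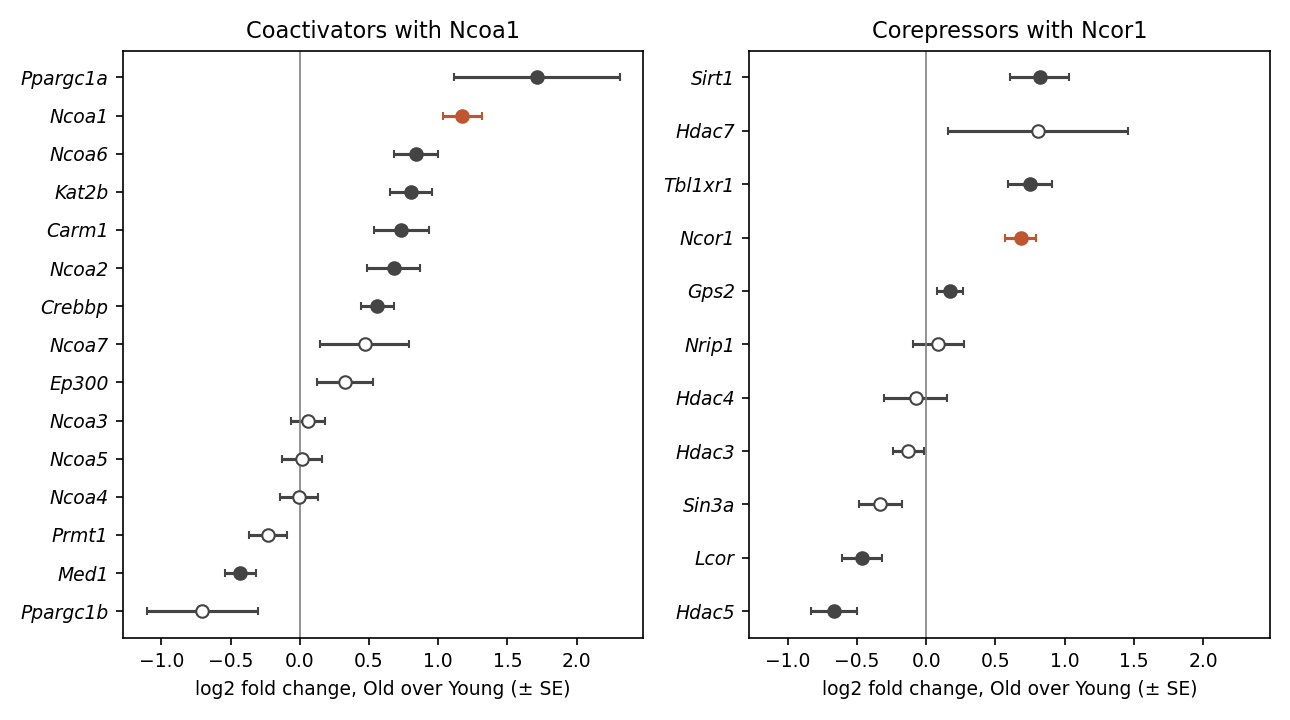
log2 fold change of old over young mice with SE (x axis) for Ncoa1 with the 14 other coactivators (left) and Ncor1 with other corepressors (right, 1 of the 11 not drawn), filled where the ages did not overlap in CPM and orange for Ncoa1 and Ncor1. The coactivators without overlap lie to the right of 0 apart from Med1 at -0.43, and the corepressors without overlap lie on both sides, from Hdac5 at -0.67 to Sirt1 at 0.82.

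Of the partner and other lipid-sensing receptors, 20 of 25 were tested, with a median log2 fold change of 0.27. At an unadjusted p under 0.05 (edgeR), 4 were higher and 1 lower, against 10.1% and 8.79% of all genes tested. Without 3posI, 5 were higher and 0 lower, against 8.13% and 9.51%, with a median of -0.01. Rxrg, the third RXR, had 1.08 to 4.13 CPM in young and 5.93, 13.7 and 14.3 CPM in old mice, without overlap, a log2 fold change of 1.98 ± 0.46 (adjusted p = 0.0841, edgeR). Its lowest old value was that of 3posI, and without this library the log2 fold change was 2.29 (adjusted p = 0.0512). Thra, a thyroid hormone receptor and RXR partner, had 2.04 ± 0.68 CPM in young (SD, n = 4) and 3.49 ± 0.23 CPM in old mice (SD, n = 3), with 0.77 on the log2 scale (adjusted p = 0.215). Nr2f6, an orphan receptor, had 20.04 ± 1.79 and 16.2 ± 1.34 CPM (-0.31, adjusted p = 0.262).

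Of the 17 LXR target genes tested (19 listed), 1 was higher and 3 lower at an unadjusted p under 0.05 (edgeR). The shares over all genes tested were 10.1% and 8.79%. The median log2 fold change of the list was -0.09. Without 3posI, 0 were higher and 4 lower, against 8.13% and 9.51%, with a median of -0.11. Abca1, the cholesterol efflux pump that is a classical LXR target, had 285 to 360 CPM in young and 366 to 557 CPM in old mice, without overlap, with a log2 fold change of 0.48 ± 0.17 (adjusted p = 0.184, edgeR) that was 0.30 without 3posI, its highest library. Abca7, another lipid transporter, had 29.8 to 36.1 CPM in young and 20.2 to 25.4 CPM in old mice (-0.52 ± 0.13, adjusted p = 0.0968). Lpcat3, which puts polyunsaturated chains into phospholipids, had 145 to 174 CPM in young and 103 to 127.6 CPM in old mice (-0.45 ± 0.12, adjusted p = 0.121). With all libraries, Abca1 and these 2 genes lay on opposite sides of 0.

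Among the PPAR target genes, 1 of 20 tested (21 listed) was higher and 3 were lower at an unadjusted p under 0.05 (edgeR). The shares over all genes tested were 10.1% and 8.79%. The median log2 fold change of the list was 0.05. Without 3posI, 0 were higher and 3 lower, against 8.13% and 9.51%, with a median of -0.24. Ehhadh, a peroxisomal enzyme of fatty acid oxidation, had 6.54 to 10.3 CPM in young and 4.37 to 5.74 CPM in old mice (log2 fold change -0.71 ± 0.21, adjusted p = 0.141, edgeR). Pdk4, the kinase that turns off pyruvate dehydrogenase, had 2.42, 0.492, 5.45 and 0.731 CPM in young and 0.119, 0.46 and 0 CPM in old mice, in which the young libraries spread widely (adjusted p = 0.176). Fabp4, a fatty acid carrier of fat cells and macrophages, reached 16.3 CPM in 3posI and at most 2.33 CPM in the other 6 libraries, and its log2 fold change of 2.61 (adjusted p = 0.207) was 0.75 without 3posI.

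Of the enzymes and carriers of oxysterol and retinoid ligands, 14 of 16 were tested, and 0 had an unadjusted p under 0.05 with edgeR, against 18.9% of all genes tested, 0 were called by DESeq2, against 7.97%, and 0 were without overlap, against 17.8%, with a median log2 fold change of -0.27. Without 3posI, 2 were lower and 0 higher at an unadjusted p under 0.05 (edgeR), against 9.51% and 8.13% of all genes tested. The median was then -0.25. Ch25h, which makes the LXR ligand 25-hydroxycholesterol, had 97.3 ± 14.95 CPM in young (SD, n = 4) and 74.2 ± 37.1 CPM in old mice (SD, n = 3), a difference within the spread (adjusted p = 0.507). Rdh10 and Aldh1a2, which convert retinol to retinoic acid, had log2 fold changes of -0.43 (adjusted p = 0.33) and -1.41 (adjusted p = 0.47). DESeq2 gave no adjusted p for Aldh1a2.

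Of the 82 genes of the 6 lists whose mean reached 1 CPM, the one with the pattern most like each of the 9 was found by Pearson's r of log2 CPM over the 7 libraries, as a description. Ncoa6 was the most like Ncoa1 (r = 0.975) and Rxra (r = 0.944), and Kat2b the most like Ncor1 (r = 0.961). Nr1h3 was most like Smpdl3a (r = 0.959), a phosphodiesterase and LXR target, and Pparg most like Hdac7 (r = 0.914). For Nr1h2 it was Hdac4 (r = 0.881) and for Rxrb the engulfment receptor Mertk (r = 0.876). Ppard reached 0.703 with Ncoa6 and Ppara, at a few counts, 0.728 with Nr4a1.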

How the data were processed

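Per the paper's methods and the labels, the authors trimmed reads with skewer, aligned them to GRCm38 with STAR and quantified GENCODE m15 genes with RSEM (STAR and RSEM versions not given in the sources used here). As deposited, the expected counts are not normalized, and the TPM and FPKM values that the authors deposited beside them are scaled within each library. The labels describe the libraries as non-stranded. The labels name a PureLink kit for RNA extraction and the methods a PicoPure kit.

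Rounded expected counts were used. As in the study's methods, a gene was kept if its count passed 10 in any library and if it was autosomal, here by GENCODE vM21, which gave 17559 genes. edgeR 4.0.16 (R 4.3.3) gave TMM factors and the quasi-likelihood test of 3 old against 4 young libraries with age as the only term, and p-values were adjusted over all genes by the Benjamini-Hochberg method. A call has an adjusted p under 0.05. The study's limma-voom test (limma 3.58.1), DESeq2 1.42.0, other normalizations and filters, effective length as an offset, limma on TPM and each library left out in turn were alternatives. Removal of length and GC trends (lowess span 0.3) was added after seeing the data. log2 CPM had a prior count of 1 and log2 TPM a pseudocount of 0.1. Neither a batch nor a pairing of mice is named in the labels. The scripts were tested on simulated data.

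The members and lists were chosen with earlier results of these data known. All 9 members are named, and from each list the 3 genes with the smallest p at a mean of at least 1 CPM, the gene most like each member, and the few genes stated in the text as picked otherwise. The values of 1 corepressor are not reported here. Depth was 36574083 to 53002386 expected counts per library, at which Ppara and Pparg had few counts.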

Additional observations from a re-analysis of the deposited data

Results flagged for a closer look

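In a group of 4 young libraries, 1 library was far from the others for 2 of 27 genes (the 9 genes and the named list genes). Chance gives such a gap in about 1 in 20 groups, or 1.35 of 27. For Kat2b, young mouse 23C had 6.14 CPM and the other 3 had 7.38 to 7.57 CPM, a gap of 0.869 of the range. For Aldh1a2, 23C had 11.9 CPM and the other 3 had 1.14 to 1.99 CPM, a gap of 0.921 of the range. Both gaps are in the same library, and Kat2b had 11.6 to 12.9 CPM in the old libraries.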

How the results depend on the processing

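Of the 9 genes, the number called moved from 2 to 1 with effective length as an offset and to 0 with limma on log2(TPM + 0.1) and on log2(TPM + 1), where the median of all genes shifted to -0.13 and -0.07. It was 0 to 1 when 1 library was left out, with Ncoa1 alone past the threshold without 3posI and without 4posI, and Ncor1 never. Leaving out 14C, 18C, 29C or 2posI brought the calls over all genes from 141 to at most 2, 23C to 14, 4posI to 85, and without 3posI there were 159. The number without overlap was 3 to 5, and was 5 without 2posI, where Nr1h3 and Ppard joined. Ncoa1 had a log2 fold change of 1.32 (adjusted p = 0.0573, limma) with log2(TPM + 0.1) and 1.13 (0.0625) with log2(TPM + 1), and 1.11 to 1.23 with 1 library left out (adjusted p = 0.0254 to 0.108). Ncor1 had 0.56 with the offset, 0.46 with log2(TPM + 0.1) and 0.45 with log2(TPM + 1), and 0.64 to 0.74 with 1 library left out (adjusted p = 0.0524 to 0.151). Rxra passed with DESeq2 (0.69, adjusted p = 0.00293) and with the GC trend removed (0.86, adjusted p = 0.0446), and lay at 0.56 to 0.79 with 1 library left out. Nr1h2 turned to 0.19 with the GC trend removed. Pparg turned to -0.090 with sample quality weights and to -0.34 without 3posI, and was -0.34 to 1.78 with 1 library left out, as Nr1h3 was 0.49 to 2.56. The cause was not tested.

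Of the 96 list genes, the number called was 0 with edgeR and whichever library was left out, 5 with sample quality weights, 14 with DESeq2, 2 each with the offset, without a filter and with at least 1 CPM in 3 libraries, and 1 each with both TPM fits and the length trend removed. The order of levels kept its calls with FPKM and with log2(TPM + 1). With 1 library left out, Ncor1 over Rxrb was 1.60 to 1.82, Rxra over Ncoa1 0.74 to 0.95 and Ppard over Pparg 2.25 to 2.76 on the log2 scale, with adjusted p of 0.0625 to 0.0833, where the smallest p that 6 libraries allow is 0.0312 before adjustment. Ppara gave no value where the filter removed it. No paired analysis was possible because the animal codes of the ages differ. With 3 against 4 mice an exact permutation test cannot go below 0.0286, and Ppara rests on at most 11 counts per library.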
